A study of Mus musculus with 12 samples.

Results

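LPS injury and hyperoxia injury were compared in cultures that both carried M2-Exo. The members were chosen by their labels and not by their values: the 3 libraries of LPS + M2-Exo and the 3 of Hyp + M2-Exo, which are 6 of the 12 libraries of the series. All 12 came from MLE-12, an immortalised mouse lung epithelial line that serves as a model of the alveolar type II (AT II) cell. The LPS + M2-Exo cultures stood in 21% oxygen and received 100 ng/mL lipopolysaccharide (LPS) and then 10 µg/mL M2-Exo. The Hyp + M2-Exo cultures were kept in 85% oxygen, without LPS, and received the same 10 µg/mL M2-Exo. The sample titles give 24 h for every library. M2-Exo are vesicles that MH-S, a mouse alveolar macrophage line, released after IL-4 treatment, and they were collected with an exosome isolation kit. The other 6 libraries, 3 of LPS and 3 of Hyp without M2-Exo, were used only to see which injury differences were narrower or wider once M2-Exo was present. Since no library of untreated cells was used here, a gene higher with LPS cannot be told apart from a gene lower in hyperoxia. The injury, the oxygen level, the incubator and any batch of culture or extraction cannot be told apart either. The labels do not say that the replicates were separate cultures, so every p-value measures only the spread between these libraries.

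LPS is a component of the outer membrane of Gram-negative bacteria. It is bound by LBP and CD14, sensed by TLR4 with MD-2 (the product of Ly96), and signals through MyD88 and TRIF to NF-kB and to interferon-stimulated genes. Hyperoxia raises reactive oxygen species in lung epithelium, where damage to DNA and proteins engages p53, the antioxidant factor NRF2 and the integrated stress response, in which phosphorylated eIF2α favours translation of ATF4. Oxygen also sets the activity of the hypoxia-inducible factors, which drive glycolytic genes. M2 macrophages are associated with tissue repair, and their exosomes carry proteins, lipids and small RNAs to recipient cells.

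Library size differed between the groups. Total counts ran from 16021833 to 18505941 in LPS + M2-Exo and from 20231632 to 23414010 in Hyp + M2-Exo, and mitochondrially encoded genes took a larger share of the counts in every LPS + M2-Exo library. After each library was thinned to 16021833 counts, 16502 to 16646 genes had a count in LPS + M2-Exo and 17377 to 17462 in Hyp + M2-Exo. Of the alveolar type II genes that define the labelled cell, Nkx2-1 and Abca3 were abundant and Sftpc was present at 21.8 to 23.4 CPM (a gene's count scaled to library size) in LPS + M2-Exo and 12.3 to 13.9 CPM in Hyp + M2-Exo, while Sftpa1 and Sftpd had at most 1 count in any of the 6 libraries. Sftpb was low and went the other way, at 1.55 to 1.68 CPM in LPS + M2-Exo and 4.11 to 5.61 CPM in Hyp + M2-Exo. Lamp3, Slc34a2 and Napsa reached at most 1.07, 1.36 and 2.53 CPM in the 6 libraries. Of the general epithelial markers, Krt8 lay between 133.5 and 150.1 CPM in the 6 libraries and Cdh1 between 16.1 and 18.6 CPM in LPS + M2-Exo and 2.88 and 3.92 CPM in Hyp + M2-Exo, while Epcam and Krt18 stayed at or under 1.17 CPM. Markers of macrophages were present as well and differed with the injury. Of 31 macrophage and myeloid genes 23 passed the filter on low counts. Of these, 19 were higher (82.6%) and 2 lower (8.7%) in LPS + M2-Exo, against 36.5% and 37.1% of all genes tested. Members such as Marco passed the filter only through LPS + M2-Exo, and both lower members, C1qc and Itgax, only through Hyp + M2-Exo. No direction is therefore read from this split. The list summed to between 501.6 and 563.9 CPM in LPS + M2-Exo against 120.8 to 183.3 CPM in Hyp + M2-Exo. Csf1r, the receptor that macrophages need for survival, read 82.4, 79.5 and 92.6 CPM in LPS + M2-Exo and 23.1, 16.9 and 14.4 CPM in Hyp + M2-Exo, and Coro1a and Fcer1g, of the leukocyte cytoskeleton and Fc receptors, were higher by 2.94 and 2.83 on the log2 scale. Marco, a scavenger receptor, had no count in Hyp + M2-Exo and was at least 62.2-fold higher in LPS + M2-Exo. The lower members were C1qc (-1.42) and Itgax, which read 0.062, 0 and 0 CPM in LPS + M2-Exo and 0.542, 0.536 and 1.58 CPM in Hyp + M2-Exo. Siglecf, a defining marker of alveolar macrophages, had at most 1 count and Mrc1 lay between 0.402 and 1.55 CPM. The list was also high in the LPS libraries without M2-Exo, at 625.6 to 695.4 CPM against 153.5 to 162.8 CPM in Hyp. The 4 Y-linked genes, a group added after the data were seen, summed to between 15.67 and 17.88 CPM in LPS + M2-Exo and between 2.492 and 4.588 CPM in Hyp + M2-Exo, and Xist lay between 1738 and 1814 CPM in the 6 libraries.

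**Figure D1:**
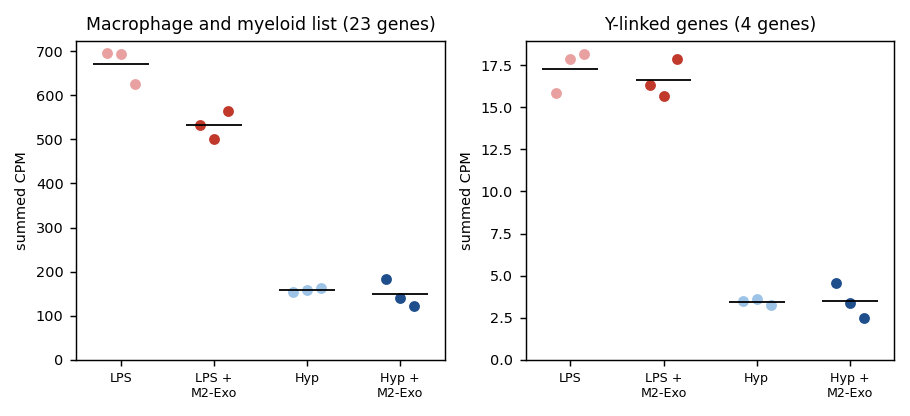
Summed levels (CPM, vertical axis) of the macrophage and myeloid list (left) and of 4 Y-linked genes (right) in each of the 12 libraries, with a line at each group's mean. The LPS + M2-Exo libraries lie between 501.6 and 563.9 CPM on the left and the Hyp + M2-Exo libraries between 120.8 and 183.3 CPM.

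In these bulk libraries fewer cells of a type and less RNA per cell cannot be told apart. The part that these markers play in the results below was not tested.

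The injury difference remained broad with M2-Exo in both cultures. With edgeR's quasi-likelihood test and a Benjamini-Hochberg adjusted p under 0.05, 10062 of 13660 genes tested differed, or 73.7%. Of all genes tested, 36.5% were higher in LPS + M2-Exo and 37.1% were lower, and 24.0% differed by a log2 fold change of at least 1. Without M2-Exo, 75.8% of 13805 genes differed. The groups did not overlap, in either direction, in 77.0% of all genes tested. These shares are the background for every list that follows: with so many genes called, a list in which most members differ is no more than ordinary, and only its split by direction and its median stand beside the median of all genes, -0.0083 on the log2 scale. In all log2 fold changes below, a positive value means higher in LPS + M2-Exo. Where values are given per library, they are CPM in replicates 1, 2 and 3 of each group, on one scaling for all 12 libraries. A list's count gives how many of its members in the table passed the filter on low counts, and members chosen for their role were named after their values were seen.

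The genes farthest apart included matrix proteins, inflammatory products and secreted factors. Fmod, which encodes fibromodulin, a proteoglycan that binds collagen fibrils, had 69.3, 66.6 and 65.3 CPM in LPS + M2-Exo and 1.67, 1.65 and 0.623 CPM in Hyp + M2-Exo, which is a log2 difference of 5.65 ± 0.22 (SE, adjusted p = 2.58e-07). Prelp, another leucine-rich matrix proteoglycan, had 48.3, 50.6 and 41.2 CPM in LPS + M2-Exo and 1.42, 1.97 and 1.05 CPM in Hyp + M2-Exo and a log2 fold change of 4.97. Every LPS + M2-Exo library was far above every Hyp + M2-Exo library for both genes. Col6a1 and Col6a2, which encode chains of type VI collagen, were higher by 4.55 and 4.28 on the log2 scale, and Igfbp5, an insulin-like growth factor binding protein, by 4.22. Hp, encoding the acute-phase protein haptoglobin, read 29.3, 28.9 and 29 CPM in LPS + M2-Exo and 1.21, 0.76 and 1.1 CPM in Hyp + M2-Exo, which gives a log2 fold change of 4.82. The remaining genes of this group were Calcrl, the receptor subunit for adrenomedullin and CGRP (5.04), Lgi3 (4.57) and Megf6 (4.64), and the last of these varied within Hyp + M2-Exo from 0.144 to 0.876 CPM. The other members were genes that macrophages also express: Ccl3, a chemokine (4.45), Irg1, which encodes the enzyme that makes itaconate (4.42), and Gpr84, a receptor for medium-chain fatty acids (4.84). Their direction is that of the macrophage list, whose part in them was not tested.

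In the opposite direction the extreme gene was Atp13a4, a cation-transporting ATPase. It had no count in any LPS + M2-Exo library and 9.93, 10.5 and 12.5 CPM in Hyp + M2-Exo, which places it at least 181.0-fold lower in LPS + M2-Exo against a floor of 3 counts over the group. Nppb, which encodes B-type natriuretic peptide, had 0.31, 0.518 and 0.447 CPM in LPS + M2-Exo and 11.8, 13.6 and 11.7 CPM in Hyp + M2-Exo, which gives a log2 fold change of -4.84 ± 0.19 (SE, adjusted p = 2.66e-07). Nr4a3, an immediate early nuclear receptor, had 0.372, 0.259 and 0.559 CPM in LPS + M2-Exo and 8.38, 11.1 and 12.7 CPM in Hyp + M2-Exo and a log2 fold change of -4.71. For both genes the groups were wide apart, with at most 0.559 CPM in any LPS + M2-Exo library. Aloxe3, an epidermal lipoxygenase that acts on lipid hydroperoxides, had 2.42, 1.94 and 2.46 CPM in LPS + M2-Exo and 25.4, 28.6 and 34.9 CPM in Hyp + M2-Exo (-3.69), and Lipg, endothelial lipase, had a log2 fold change of -3.42. The noncoding Mirt1 (-4.37), the protease inhibitor gene Serpinb6c (-3.94), Cox6a2, a muscle isoform of a cytochrome c oxidase subunit (-3.81), Fam222a (-3.51) and Gpr137c (-3.48) were also among the lowest. Mirt1 varied from 0.503 to 1.74 CPM within LPS + M2-Exo, and Xntrpc (-3.55) from 1.79 to 6.15 CPM. The transcription factor gene Ddit3 completes this group and is taken up with the stress response.

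Genes of the integrated stress response were lower in LPS + M2-Exo almost throughout. Its effector ATF4 switches on amino acid transport, amino acid synthesis and transfer RNA charging, and with CHOP, the product of Ddit3, it can turn toward cell death. Of 47 tested genes of 48 in the table, 40 were lower in LPS + M2-Exo and 5 higher, with a median log2 fold change of -1.09. Among its ATF4 targets alone, 31 of 33 were lower (93.9%, against 37.1% of all genes) and only Ddit4 and Pycr1 were higher. Ddit3 had 9.92, 10.2 and 9.33 CPM in LPS + M2-Exo and 102, 107 and 114 CPM in Hyp + M2-Exo, which gives a log2 fold change of -3.46 ± 0.07 (SE, adjusted p = 3.97e-08). Trib3, a pseudokinase induced by ATF4 and CHOP, had 11.4, 13.7 and 13.6 CPM in LPS + M2-Exo and 76.5, 75.6 and 81 CPM in Hyp + M2-Exo (-2.59 ± 0.082), and Asns, asparagine synthetase, had 79.6, 92.8 and 92 CPM in LPS + M2-Exo and 276, 272 and 295 CPM in Hyp + M2-Exo (-1.67 ± 0.065). The groups did not overlap in any of the 3 genes, as in 77.0% of all genes tested. Ddit3 overlaps Mars, itself a transfer RNA synthetase gene, in the table.

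The charging enzymes moved together. Aars, the alanyl synthetase, read 444, 451 and 451 CPM in LPS + M2-Exo against 1171, 1134 and 1189 CPM in Hyp + M2-Exo (-1.38, adjusted p = 5.88e-08). Log2 fold changes were -1.20 for Yars, -1.18 for Nars, -1.20 for Cars, -0.91 for Sars, -0.54 for Iars and -0.35 for Gars. Amino acid transporters were lower too, with Slc7a11, the cystine importer, at -1.64, Slc7a5, which carries leucine, at -1.57, and Slc7a1, which carries arginine, at -1.10. In serine and one-carbon synthesis Psph (-1.67), Shmt2 (-1.44), Mthfd2 (-1.63) and Phgdh (-1.27) pointed the same way. The glutathione-degrading enzyme gene Chac1 was at -2.01 and the transcription factor genes Atf3 and Atf5 at -2.21 and -2.51, while Atf4 itself, which is controlled mainly in translation, differed by -0.59. Of the eIF2α kinases, Eif2ak2, which is also interferon-inducible, was higher (0.52), as was Eif2ak4 (0.17), while Eif2ak1 was lower (-0.42) and Eif2ak3 did not pass the test (0.085, adjusted p = 0.209). Ddit4 differed by 0.25 and Pycr1, a proline synthesis gene, by 0.22.

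Promoter sequence was read for the members whose windows held a composite C/EBP-ATF site, because the ATF4 targets moved together. RefSeq gave a window from 250 bases before to 50 bases after the gene start for 9914 of the 13660 genes tested (72.6%) and for 40 of the 47 list members. The site was searched as TGATGNAAT on both strands, and it stood in 5 list windows (12.5%), those of Nupr1, Pycr1, Gars, Iars and Aars, and in 44 of all 9914 windows (0.444%). The stretches around it are printed 5′ to 3′ on the plus strand for Gars (chr6:55037940-55038000) and Aars (chr8:111033699-111033767) and on the minus strand for Pycr1 (chr11:120643813-120643881) and Nupr1 (chr7:126625543-126625611), build GRCm38.p6, with the site in capitals. The RefSeq start lies 698 bases from the start in the table for Aars and 5391 bases for Nupr1. Of the printed genes, 3 were lower in LPS + M2-Exo and Pycr1 was higher, so the letters were shared by members of both directions. A match is a description of these letters only.
Gars: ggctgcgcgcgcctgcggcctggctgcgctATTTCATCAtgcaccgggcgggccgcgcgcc
Aars: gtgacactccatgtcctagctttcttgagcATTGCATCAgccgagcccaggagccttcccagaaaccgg
Pycr1: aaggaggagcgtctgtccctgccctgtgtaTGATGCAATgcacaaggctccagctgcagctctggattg
Nupr1: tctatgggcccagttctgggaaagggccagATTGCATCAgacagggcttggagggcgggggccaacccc

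**Figure D2:**
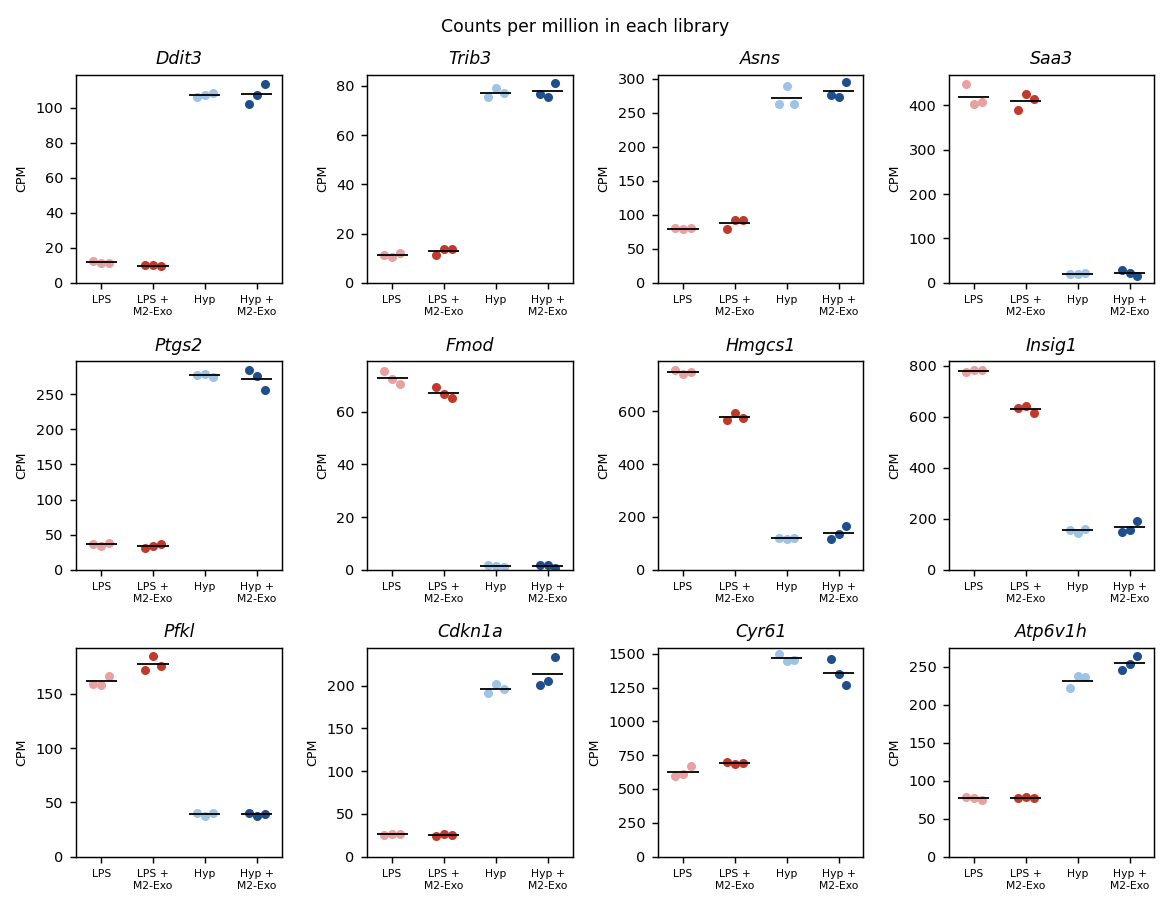
Levels (CPM, linear vertical axes from 0) of 12 genes in each of the 12 libraries, by group, with a line at each group's mean. Ddit3, Trib3, Asns, Ptgs2, Cdkn1a, Cyr61 and Atp6v1h are lower and Saa3, Fmod, Hmgcs1, Insig1 and Pfkl higher in every LPS + M2-Exo library than in any Hyp + M2-Exo library, and the pairs of groups with and without M2-Exo lie close together except for Hmgcs1 and Insig1 with LPS (mean 749.6 CPM without and 579 CPM with M2-Exo for Hmgcs1).

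Inflammatory genes differed in both directions. Of 45 tested NF-kB targets, cytokines and chemokines of 49, 31 were higher in LPS + M2-Exo (68.9%) and 12 lower, with a median of 0.90. Some of the higher members, such as Saa2 and Cxcl2, passed the filter on low counts only through LPS + M2-Exo, so no direction is read from this split. Saa3, an acute-phase serum amyloid, had 389, 427 and 415 CPM in LPS + M2-Exo and 29.2, 21.4 and 16.1 CPM in Hyp + M2-Exo, which gives a log2 fold change of 4.20 ± 0.18 (SE, adjusted p = 4.14e-07). Complement C3 had 167, 148 and 145 CPM in LPS + M2-Exo and 21.8, 18 and 17.6 CPM in Hyp + M2-Exo (3.00 ± 0.098), and Cx3cl1, fractalkine, 56.7, 54.1 and 49.4 CPM in LPS + M2-Exo and 5.75, 4.56 and 5.22 CPM in Hyp + M2-Exo (3.36 ± 0.10). All 3 were several-fold higher in each LPS + M2-Exo library. Lcn2, which sequesters bacterial siderophores, was at 3.26, Tnf at 3.25, Tlr2 at 1.66, the adhesion molecule gene Vcam1 at 0.82 and the NF-kB inhibitor gene Nfkbia at 0.79. Saa2 had no count in Hyp + M2-Exo, so it was at least 16.5-fold higher in LPS + M2-Exo.

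Several products of the same pathway were higher in hyperoxia. Ptgs2, which encodes cyclooxygenase 2, had 30.8, 33.7 and 36 CPM in LPS + M2-Exo and 284, 276 and 256 CPM in Hyp + M2-Exo (-3.02 ± 0.067, adjusted p = 4.63e-08). Csf2, encoding GM-CSF, had 0.62, 0.712 and 0.447 CPM in LPS + M2-Exo and 10.1, 9.34 and 4.98 CPM in Hyp + M2-Exo (-3.78), and the chemokine genes Ccl20 and Cxcl16 were at -2.37 and -1.21. The neutrophil chemokine genes parted, with Cxcl1 lower (-0.41) and Cxcl2 higher, from 4.53, 2.92 and 6.03 CPM in LPS + M2-Exo to 0, 0 and 0.287 CPM in Hyp + M2-Exo. Il6 was lower (-0.98), Il1b higher (2.95, with a range from 0.0958 to 0.417 CPM within Hyp + M2-Exo) and Ccl2 higher (0.66). In all, 6 of the 20 cytokine and chemokine genes tested were thus lower in LPS + M2-Exo and 14 higher. The macrophage list was higher in the same libraries as Tnf, Il1b and Cxcl2, and its part in these values was not tested.

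The NF-kB site was searched as GGGANTTTC on both strands. Only 34 of the 45 list members had a window (75.6%), so no share of the list is compared. The windows that held it include those of Nfkbia and of Cxcl1, Cxcl2 and Il6, which are printed because these targets differed in opposite directions, and 0.938% of all windows held the site. The stretches are on the minus strand for Nfkbia (chr12:55492648-55492790) and on the plus strand for Cxcl1 (chr5:90891144-90891212), Cxcl2 (chr5:90903772-90903840) and Il6 (chr5:30013040-30013108), build GRCm38.p6, with sites in capitals. The capitals are the same letters in Cxcl1 and Cxcl2, of which Cxcl1 was lower and Cxcl2 higher in LPS + M2-Exo.
Nfkbia: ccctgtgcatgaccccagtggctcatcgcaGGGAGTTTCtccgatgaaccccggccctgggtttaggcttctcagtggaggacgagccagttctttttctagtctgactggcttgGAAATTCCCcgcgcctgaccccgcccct
Cxcl1: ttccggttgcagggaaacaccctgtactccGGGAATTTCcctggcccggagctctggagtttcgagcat
Cxcl2: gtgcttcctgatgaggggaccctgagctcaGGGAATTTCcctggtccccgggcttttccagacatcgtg
Il6: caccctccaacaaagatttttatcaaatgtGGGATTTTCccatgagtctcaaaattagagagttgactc

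The receptor side of LPS signalling differed little as a list. Of 22 tested members 8 were higher and 8 lower, shares close to those of all genes, and the median of 0.046 turned negative when libraries were scaled by their size alone (-0.045) and with limma on FPKM (-0.034 to -0.030). Lbp, the LPS carrier, had 323, 294 and 289 CPM in LPS + M2-Exo and 81.1, 71.4 and 63.1 CPM in Hyp + M2-Exo (2.07 ± 0.089), and the co-receptor gene Cd14 was at 0.92. Ly96, the MD-2 partner of TLR4, was lower (-1.01), while Tlr4 itself read 0.682, 0.583 and 4.13 CPM in LPS + M2-Exo and 3, 2.9 and 3.45 CPM in Hyp + M2-Exo and did not pass the test (-0.75, adjusted p = 0.288). LPS + M2-Exo replicate 3 lay above and the other replicates below every Hyp + M2-Exo library for Tlr4. Further down, Irak3, an inhibitor of the pathway, was higher (1.16), and the kinase genes Chuk (-1.08) and Tbk1 (-0.44) were lower. Of 39 interferon-stimulated genes tested, 31 were higher in LPS + M2-Exo (79.5%) and 2 lower, with a median of 0.81. Some of the higher members, such as Oas2 and Ifi44, passed the filter only through LPS + M2-Exo, so no direction is read from this split. The list summed to 1653, 1651 and 1696 CPM in LPS + M2-Exo and 1050, 1002 and 1013 CPM in Hyp + M2-Exo. Parp14 had 121, 122 and 122 CPM in LPS + M2-Exo and 48.5, 48.9 and 46.3 CPM in Hyp + M2-Exo (1.35), the guanylate-binding protein gene Gbp7 was at 1.27 and the antiviral Ifit2 at 1.07, while Rsad2 (-0.75) and Oas1b (-0.62) were the lower members. Macrophages also express many of these genes, and the summed levels of the macrophage list were also higher in LPS + M2-Exo.

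The summed levels of p53 targets and of early response genes were higher in Hyp + M2-Exo. The p53 targets summed to between 2644 and 2690 CPM in LPS + M2-Exo and between 3216 and 3346 CPM in Hyp + M2-Exo. For AP-1 and immediate early genes the sums were 3348 to 3440 CPM in LPS + M2-Exo and 4849 to 5103 CPM in Hyp + M2-Exo. Of 36 p53 targets tested, 25 were lower in LPS + M2-Exo and 5 higher, with a median of -0.65. Cdkn1a, the cell cycle inhibitor p21, had 24.3, 26.2 and 25.5 CPM in LPS + M2-Exo and 201, 206 and 234 CPM in Hyp + M2-Exo (-3.07 ± 0.071, adjusted p = 4.95e-08), a gap far wider than either group's spread. Mdm2, the ligase that limits p53, was at -1.18, Ccng1 at -1.10 and the ephrin receptor gene Epha2 at -1.11. Sesn1 (1.54) and Ccnd1, cyclin D1 (1.19), went the other way. Of 29 AP-1 and immediate early genes, 23 were lower and 5 higher, with a median of -0.76. Lower members such as Nr4a3 passed the filter only through Hyp + M2-Exo, so no direction is read from this split. Maff was at -1.41, Mafk at -1.07, Egr1 at -1.49, and Cyr61, a matrix signalling protein under YAP and AP-1, had 703, 688 and 691 CPM in LPS + M2-Exo and 1460.0, 1349 and 1271 CPM in Hyp + M2-Exo (-0.97 ± 0.053). Fosl2 (1.20) and Klf4 (0.89) were higher.

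Of 53 replication and G1/S genes, 35 were lower in LPS + M2-Exo and 10 higher. Cdc45, part of the replicative helicase, was at -1.06, the licensing factor gene Cdc6 at -1.60 and E2f8 at -1.74, whereas Pold1, a subunit of the polymerase δ, was higher (0.82). Of 52 mitosis genes, 26 were higher and 16 lower, led by Ccnb2, cyclin B2 (1.47), and Kif2c (0.81) on the higher side and by Smc2 (-0.79) and Bub1 (-0.61) on the lower side. The proliferation marker Mki67 was lower (-0.32). Repair genes were divided (12 of 44 higher, 18 lower), with Wrn (0.69) above and Nbn (-1.04) and Rad51ap1 (-1.05) below. Among replication-dependent histone genes, whose transcripts mostly lack a poly(A) tail, 11 of 57 passed the filter on low counts, many only through Hyp + M2-Exo, so no direction is read from their count. Hist1h1c had 6.7, 5.25 and 4.92 CPM in LPS + M2-Exo and 21.4, 17.2 and 19.8 CPM in Hyp + M2-Exo (-1.79) and Hist1h2bc had 2.36, 2.79 and 2.9 CPM in LPS + M2-Exo and 10.4, 11.3 and 11.3 CPM in Hyp + M2-Exo (-2.03).

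Glycolytic genes were higher in the LPS + M2-Exo cultures, which stood at 21% oxygen. In all, 13 of 18 glycolytic enzyme genes were higher and 2 lower, with a median of 0.82, and over the whole hypoxia and glycolysis list 30 of 49 were higher and 10 lower. Pfkl, liver phosphofructokinase, had 172, 185 and 176 CPM in LPS + M2-Exo and 39.8, 37.7 and 39.7 CPM in Hyp + M2-Exo (2.19 ± 0.049, adjusted p = 4.63e-08). Pdk1, a kinase that inhibits pyruvate dehydrogenase, had 89.2, 86.5 and 81.5 CPM in LPS + M2-Exo and 14.2, 15.6 and 14.7 CPM in Hyp + M2-Exo (2.53). The lactate exporter gene Slc16a3 had 60, 67.2 and 71.8 CPM in LPS + M2-Exo and 6.38, 4.6 and 4.74 CPM in Hyp + M2-Exo (3.66). The groups did not overlap for these 3 genes, as for most genes (77.0%). Egln3, an oxygen-sensing prolyl hydroxylase gene induced by HIF, was at 3.46, Bnip3 at 1.72 and Ldha at 1.01. Egln3 was low, with 30, 25 and 29 counts in LPS + M2-Exo and 6, 2 and 2 in Hyp + M2-Exo. It passed the filter only through LPS + M2-Exo. Pfkp (-0.65), Hk2 (-0.83) and the oxidoreductase gene Ero1l (-0.61) were lower. The core letters of the hypoxia response element, ACGTG on either strand, stood in 23 of 41 list windows (56.1%) and in 25.5% of all windows. The HIF subunit genes Hif1a (-0.21, adjusted p = 0.0118) and Epas1 (-0.97, adjusted p = 0.025) were lower. Epas1 had only 7, 14 and 9 counts in LPS + M2-Exo and 34, 23 and 24 in Hyp + M2-Exo, through which alone it passed the filter.

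Antioxidant genes did not follow one direction. Of 38 NRF2 genes, 26 were higher in LPS + M2-Exo (68.4%) and 8 lower. Hmox1, heme oxygenase 1, had 102, 104 and 105 CPM in LPS + M2-Exo and 316, 336 and 354 CPM in Hyp + M2-Exo (-1.69 ± 0.049), whereas the glutathione transferase gene Gstm1 had 124, 107 and 107 CPM in LPS + M2-Exo and 15.5, 12.5 and 14.7 CPM in Hyp + M2-Exo (2.98 ± 0.099) and Nfe2l2, which encodes NRF2, had 622, 609.9 and 607 CPM in LPS + M2-Exo and 248, 218 and 203 CPM in Hyp + M2-Exo (1.46 ± 0.068). Hmox1 lay in the opposite direction to the others. Idh1, an NADPH source, was higher (1.54). In the list of superoxide dismutases, catalase, peroxiredoxins and related genes 14 of 24 were higher and 5 lower. Catalase (Cat) at 1.17, mitochondrial superoxide dismutase (Sod2) at 0.84 and peroxiredoxin 1 (Prdx1) at 0.58 were on the higher side and Sesn2 (-1.47) and Glrx5 (-0.51) on the lower. Ferroptosis, an iron-dependent death by lipid peroxidation, gave 20 of 53 genes higher and 19 lower, shares near those of all genes, and the sign of the median (0.07) changed with scaling by library size (-0.020) and with limma on FPKM (-0.089 to -0.0019). Gpx4, which reduces lipid peroxides in membranes, had 77, 75.5 and 78.4 CPM in LPS + M2-Exo and 71.7, 67.7 and 62.3 CPM in Hyp + M2-Exo (0.20 ± 0.061, adjusted p = 0.0184). The Gpx4 ranges were adjacent and did not overlap. Acsl4, which loads polyunsaturated fatty acids into phospholipids, was higher by 0.23 and the transferrin receptor gene Tfrc lower (-0.78). Gch1, which makes the radical-trapping cofactor tetrahydrobiopterin, had 11.3, 10.7 and 11.8 CPM in LPS + M2-Exo and 63.8, 60.2 and 57.8 CPM in Hyp + M2-Exo (-2.42).

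Sterol genes were higher with LPS. The SREBP2 programme makes and takes up cholesterol. Of 40 tested members 28 were higher in LPS + M2-Exo (70.0%) and 4 lower, with a median of 0.68, and of the 22 genes of synthesis 15 were higher and the other 7 did not pass the test. Hmgcs1, which makes HMG-CoA at the start of the pathway, had 566, 595 and 576 CPM in LPS + M2-Exo and 117, 135 and 167 CPM in Hyp + M2-Exo (2.05 ± 0.11, adjusted p = 1.4e-06). Srebf2, the transcription factor gene, had 699, 676 and 668 CPM in LPS + M2-Exo and 254, 252 and 248 CPM in Hyp + M2-Exo (1.44 ± 0.035). The groups were separate for both genes, and the Hyp + M2-Exo libraries were less even for Hmgcs1 than for Srebf2. Insig1 was at 1.93, Sqle at 1.60 and Abca1, which exports cholesterol, at 1.27. Npc1 (-0.92) and the ubiquitin ligase gene Mylip (-2.33) were lower. In fatty acid and phospholipid synthesis 18 of 41 were higher and 7 lower. Scd2, a stearoyl-CoA desaturase, was at 2.00 and the desaturase gene Fads2 at 0.86, while Cds1 (-1.19) and Chka (-1.15) were lower, Srebf1 was higher (0.91) and Scd1 lay close to equality (-0.081). The letters TCACNCCAC of a sterol response element stood in the Hmgcs1 window (chr13:119690184-119690252, plus strand, GRCm38.p6, capitals) and in 1.08% of all windows. It is printed because no other tested list member had these letters in its window.
Hmgcs1: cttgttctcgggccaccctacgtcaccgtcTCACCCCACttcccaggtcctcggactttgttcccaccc

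Epithelial identity genes differed in both directions. Nkx2-1, the lineage factor of lung epithelium, had 187, 174 and 172 CPM in LPS + M2-Exo and 42.4, 35.2 and 37.6 CPM in Hyp + M2-Exo (2.21 ± 0.074, adjusted p = 1.46e-07). Over the alveolar type II list, of which 24 of 33 passed the filter, 16 were higher and 5 lower. Some of the higher members, such as Napsa and Slc34a2, passed the filter only through LPS + M2-Exo, so no direction is read from this split. Sftpc, surfactant protein C, was at 0.79, Gata6 at 1.82 and Abca3, the lipid pump of lamellar bodies, at 0.47. Sftpb (-1.56), the endocytic receptor gene Lrp2 (-1.08) and Cebpa (-2.37) were lower. Among alveolar type I markers, 13 of 18 were higher and 3 lower. Rtkn2 had 70.1, 75.7 and 73.2 CPM in LPS + M2-Exo and 17.5, 14.9 and 14.6 CPM in Hyp + M2-Exo (2.22), Ager, the RAGE receptor, was at 1.40, Pdpn, podoplanin, at 1.53 and Col4a3 at 0.83, whereas Sema3e (-1.13) and Clic5 (-0.98) were lower. Aqp5, the type I water channel, had 70, 96.2 and 67.5 CPM in LPS + M2-Exo and 104, 83.3 and 99.9 CPM in Hyp + M2-Exo and did not pass the test (-0.30, adjusted p = 0.0881). Its ranges overlapped. Transitional-state genes were mixed (12 of 24 higher, 8 lower), with Cdh1, E-cadherin (2.42), and Tgfb2 (1.48) higher and Hbegf (-1.68) and Lgals3 (-1.26) lower. Tight junction genes, of which 21 of 27 passed the filter, gave 9 higher and 6 lower, with the scaffold gene Tjp1 (0.78) higher and Lsr (-0.88) and Pard3 (-0.51) lower.

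The summed levels of matrix and of TGF-β genes were higher in LPS + M2-Exo. The matrix list summed to between 12540 and 12670 CPM in LPS + M2-Exo and between 6474 and 7094 CPM in Hyp + M2-Exo. The TGF-β list summed to between 3510 and 3665 CPM in LPS + M2-Exo and between 1687 and 1782 CPM in Hyp + M2-Exo. Of 50 matrix genes 32 were higher (64.0%) and 10 lower, with a median of 0.68. Some members passed the filter through 1 group only, such as Lama3 through LPS + M2-Exo and Mmp13 through Hyp + M2-Exo. No direction is therefore read from this split. Col4a5, a basement membrane collagen, had 916, 900.1 and 938 CPM in LPS + M2-Exo and 258, 227 and 234 CPM in Hyp + M2-Exo (1.94 ± 0.052), and Hspg2, perlecan, was at 1.90. Mmp13, collagenase 3, was lower (-4.74), as was Col12a1 (-0.73). In the TGF-β list 23 of 36 were higher and 8 lower. Among ligands Tgfb3 had 90.9, 93.8 and 91.3 CPM in LPS + M2-Exo and 17.7, 16.7 and 18.1 CPM in Hyp + M2-Exo (2.39) and Bmp2 48.4, 44 and 49 CPM in LPS + M2-Exo and 3.25, 2.99 and 3.69 CPM in Hyp + M2-Exo (3.83), while Inhba, the activin A subunit, was lower (-0.95). Both ligands were well apart between the groups. The latency-binding protein gene Ltbp4 was at 2.68, the receptor gene Tgfbr2 at 2.23 and Acvr2a at -0.57. Stromal markers were split, with Dcn, decorin (1.14), and Pdgfra (3.81) higher and Vwf (-3.21) and Pecam1 (-4.05) lower, 5 higher and 3 lower of the 9 of 16 that passed the filter.

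Lysosomal and autophagy genes were mostly higher in hyperoxia: 36 of 57 were lower in LPS + M2-Exo (63.2%) and 12 higher, with a median of -0.45. Atp6v1h, a subunit of the proton pump that acidifies lysosomes, had 77.6, 78.2 and 77.3 CPM in LPS + M2-Exo and 246, 253 and 265 CPM in Hyp + M2-Exo (-1.71 ± 0.041), and Gla, α-galactosidase A, had 31.9, 30.4 and 29.8 CPM in LPS + M2-Exo and 126, 123 and 122 CPM in Hyp + M2-Exo (-2.01 ± 0.05). Both were separate in every library. Ctsc (1.22), which leukocytes use to activate granule proteases, and Calcoco1 (1.53) were higher. Zinc genes were lower in 10 of 20, including the transporter genes Slc39a6 (-0.78), Slc30a4 (-1.22) and Slc30a7 (-0.61), and the metallothionein gene Mt2 was at -1.16. The importer gene Slc39a10 (2.31) and Slc39a13 (0.89) were higher.

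Cytoplasmic ribosomal protein genes and mitochondrial transcripts were slightly higher in LPS + M2-Exo. Of 81 ribosomal protein genes 56 were higher and 4 lower, with a median of 0.39. Rps4x (0.96) and Rpl10a (0.86) were higher and Rpl12 (-0.76) and Rpl27 (-0.56) lower, and many of these genes share sequence with pseudogenes, so their counts are uncertain. Of the mitochondrially encoded genes 12 of 13 were higher, with mt-Nd4 at 0.55 and mt-Co3 at 0.54. Nuclear respiratory chain genes were divided (17 of 76 higher, 24 lower), with Uqcrh (0.72) and Ndufa13 (0.69) higher and Uqcrq (-1.17) and Atp5g1 (-1.06) lower. The mTOR list had 19 of 57 higher and 26 lower. Igf1r, the IGF-1 receptor (1.55), Pik3r2 (1.40) and Akt1 (0.62) were higher, and Slc7a5 (-1.57), Lamtor1 (-0.90) and Mtor (-0.13) lower.

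Other lists had members in both directions without a clear lean. Cytosolic heat shock genes gave 11 of 28 higher and 12 lower, yet Hspa8, the constitutive HSP70, had 1584, 2000.0 and 1557 CPM in LPS + M2-Exo and 519, 500.3 and 398 CPM in Hyp + M2-Exo (1.86 ± 0.13), and Bag3 was at 1.05, Chordc1 at -1.04 and Hspb8 at -0.63. Genes of the endoplasmic reticulum gave 10 of 31 higher and 11 lower, with Txndc5 (1.03) and Hsp90b1 (0.74) above and the stress sensor genes Atf6 (-1.28) and Ern1 (-1.17) below. The medians of both lists, 0.041 and 0.052, were negative under scaling by library size (-0.050 and -0.039) and with limma on FPKM, and the heat shock median also without LPS + M2-Exo replicate 3 (-0.0059). Circadian genes were even at 8 higher and 8 lower of 21, with Per3 (1.84) above and Clock (-1.07) and Nr1d1 (-1.98) below, and their median of -0.062 became 0.0059 without Hyp + M2-Exo replicate 1. Their differences were wide all the same, with 6 genes higher and 6 lower by a log2 fold change of at least 1. The median absolute log2 fold change of the list was 1.07, against 0.524 over all genes. Genes of the p38 cascade gave 11 of 26 higher and 8 lower. Dusp1, a p38 phosphatase (1.28), and Mapkapk2 (0.66) were higher, Zfp36 (-0.95) and Mknk1 (-0.48) lower, Zak, which encodes ZAKα, was higher by 0.22 and Nlrp1a, an inflammasome sensor, by 1.45. Nlrp1a was low, with 12, 14 and 21 counts in LPS + M2-Exo and 8, 5 and 10 in Hyp + M2-Exo. It passed the filter only through LPS + M2-Exo. Mapk14, p38α itself, had 146, 86.8 and 59.5 CPM in LPS + M2-Exo and 44, 39.8 and 114 CPM in Hyp + M2-Exo, varied within both groups and did not pass the test (0.57, adjusted p = 0.278). In the apoptosis list 11 of 28 were higher and 7 lower, among them Bcl2 (0.83), Birc2 (1.08) and Bmf (2.96) higher and Bax (-0.57) and Hrk (-3.85) lower. Of the exosome markers, Cd63 was lower (-0.32) and Tsg101 did not pass the test (0.007, adjusted p = 0.934). Mrc1, encoding CD206, was not called either (0.81, adjusted p = 0.0918).

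**Figure D3:**
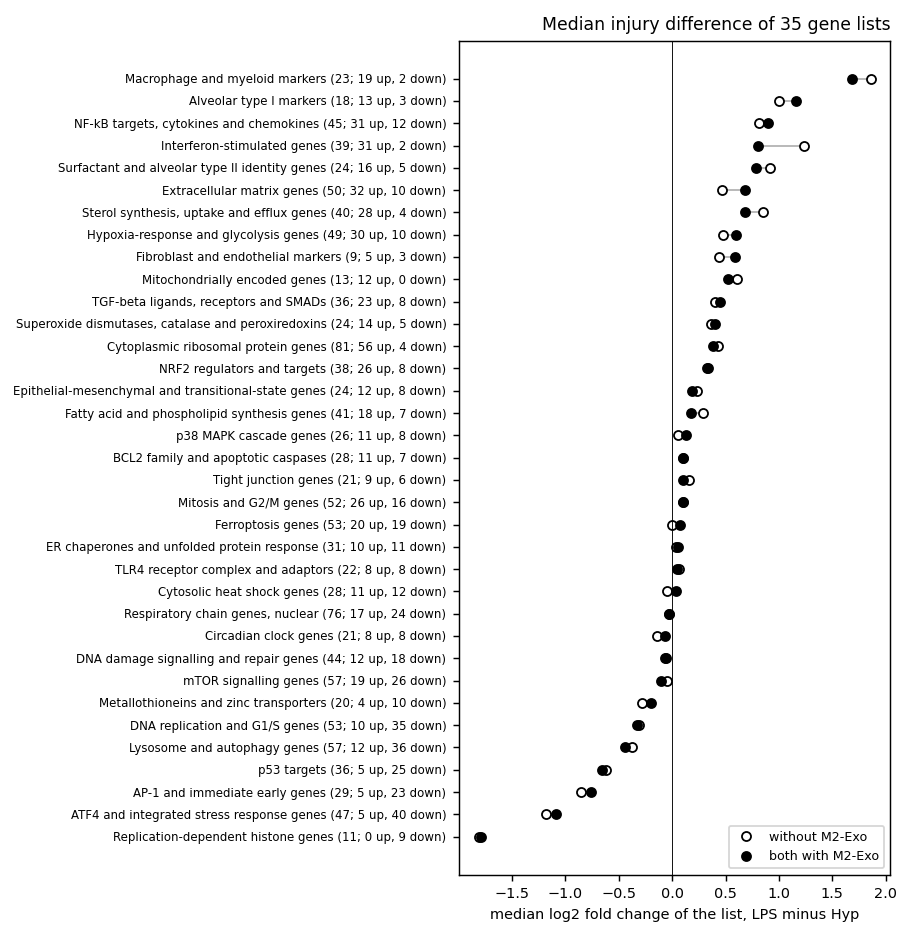
Median log2 fold change of 35 gene lists, LPS minus Hyp (horizontal axis), with M2-Exo in both cultures (filled) and without M2-Exo (open), and beside each name the number tested and the numbers higher (up) and lower (down) with M2-Exo. Both symbols nearly coincide for most lists, while the interferon-stimulated genes moved from 1.23 to 0.81 and the matrix genes from 0.46 to 0.68. The matrix medians are over 49 genes without and 50 with M2-Exo, and the median of the changes per gene in that list was only 0.062.

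Most injury differences were of similar size with and without M2-Exo. Over 13535 genes tested in both comparisons, 9185 differed in each and 9182 of these in the same direction. That is 91.9% of the genes called with M2-Exo and 89.1% of those called without it. The log2 fold changes of the 2 comparisons, which share no library, had a Pearson r of 0.952 across genes and a slope of 0.959 of the values with M2-Exo on those without, as a description, since genes are not independent. The median absolute change was 0.107 and 92.0% of the genes changed by under 0.5. Whether differences read as narrower or wider depended on which genes were looked at: 51.1% of the genes called without M2-Exo had a smaller difference with it, but 42.4% of the genes called with M2-Exo did, and 47.7% of all genes.

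**Figure D4:**
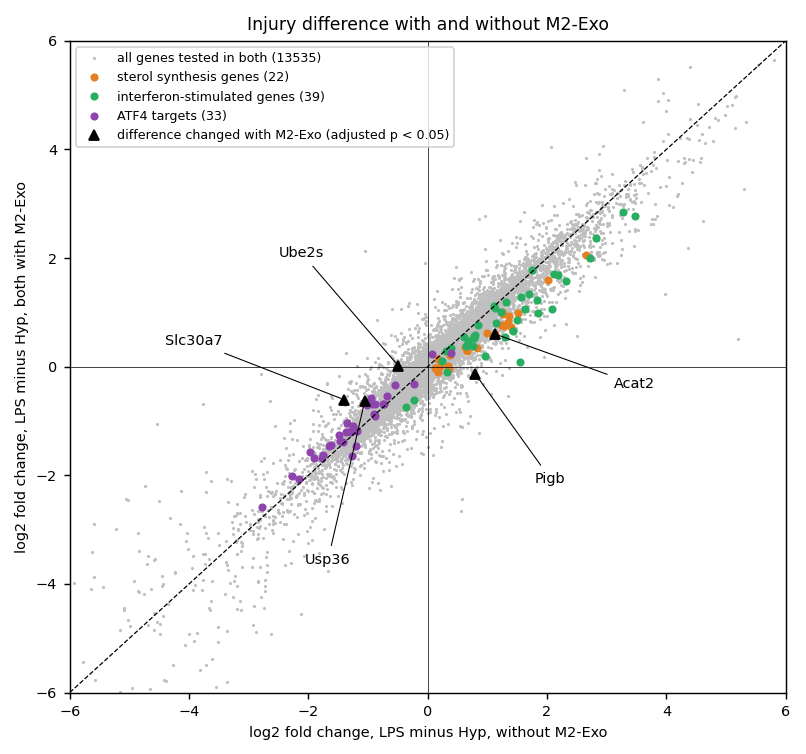
Log2 fold change of LPS over Hyp for 13535 genes, without M2-Exo (horizontal axis) and with M2-Exo in both cultures (vertical axis), with a dashed line of equality; 43 genes lie beyond the axes. The sterol synthesis (orange) and interferon-stimulated (green) genes lie mostly below the line on its higher side, the ATF4 targets (purple) mostly above it on its lower side, and the 5 genes whose difference changed by an adjusted p under 0.05 are black triangles nearer to 0 with M2-Exo.

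Only 5 of 14187 genes, or 0.0352%, changed their injury difference with M2-Exo by the interaction test in edgeR across all 12 libraries (adjusted p under 0.05), and all 5 became narrower. At an unadjusted p under 0.05 there were 1387 (9.78%), and DESeq2 called 70. Slc30a7 (ENSMUSG00000054414, chr3:115938973-116007406, GRCm38), which moves zinc into the Golgi, had 43.5, 41.4 and 43.4 CPM with LPS, 77.2, 74 and 74.4 CPM with LPS + M2-Exo, 116, 109 and 113 CPM with Hyp and 112, 116 and 116 CPM with Hyp + M2-Exo. Its difference went from -1.40 without to -0.61 with M2-Exo, an interaction of 0.79 ± 0.057 (SE, adjusted p = 0.000138). The 4 groups show that the LPS libraries with M2-Exo stood above those without it while the hyperoxia libraries overlapped. Acat2 (ENSMUSG00000023832, chr17:12942890-12960747), which joins acetyl-CoA units for the sterol pathway, had 221, 208 and 221 CPM with LPS, 170.1, 159 and 165 CPM with LPS + M2-Exo, 102, 99.7 and 96.2 CPM with Hyp and 104, 110.2 and 112 CPM with Hyp + M2-Exo, and its difference went from 1.12 to 0.60 (interaction -0.52 ± 0.059, adjusted p = 0.00639). Here the LPS libraries were lower with M2-Exo. Usp36 (ENSMUSG00000033909, chr11:118259651-118290244), a nucleolar deubiquitinase, went from -1.05 to -0.63 (interaction 0.43, adjusted p = 0.0221), with group means of 62.7 CPM in LPS and 69.9 CPM in LPS + M2-Exo, then 130.2 CPM in Hyp and 108 CPM in Hyp + M2-Exo.

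Pigb and Ube2s passed the test between the injuries without M2-Exo and did not pass it with M2-Exo. Pigb (ENSMUSG00000079469, chr9:73007419-73040378), a mannosyltransferase of GPI anchor synthesis, had means of 27 CPM with LPS and 14.6 CPM with LPS + M2-Exo, against 15.5 and 16.1 CPM in the hyperoxia groups. Its log2 fold change went from 0.80 to -0.14 (adjusted p = 0.19), an interaction of -0.94 (adjusted p = 0.00246). It overlaps 4 other genes, among them Ccpg1, so its counts are uncertain. Ube2s (ENSMUSG00000060860, chr7:4794546-4812590), a ubiquitin-conjugating enzyme of mitotic exit, had means of 45, 59.6, 63.5 and 58.8 CPM in the same order and went from -0.50 to 0.021 (adjusted p = 0.727), an interaction of 0.52 (adjusted p = 0.0244). The near-zero value with M2-Exo had no fixed sign under other scalings, and Ube2s overlaps the ribosomal protein gene Rpl28. Across 20 settings of the interaction test Slc30a7, Pigb and Acat2 were called in all 20, Usp36 in 12 and Ube2s in 11.

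Sterol synthesis genes narrowed together. All 22 had a smaller absolute difference with M2-Exo, with a median of 0.61 against 1.06 without it, and the median interaction was -0.39. Of these, 16 had an unadjusted interaction p under 0.05, compared with 9.78% of all genes, but only Acat2 passed the adjusted threshold in edgeR. DESeq2 called 12, and edgeR called 10 when Hyp + M2-Exo replicate 1 was left out, so the number depends on the tool and on that library. The list was summed per library to show where the change lay. With LPS the sums were 5365, 5320 and 5472 CPM and with LPS + M2-Exo 4254, 4342 and 4282 CPM. In hyperoxia they were 2499, 2459 and 2388 CPM without and 2379, 2617 and 2925 CPM with M2-Exo. The LPS groups did not overlap, and the hyperoxia groups did. Hmgcs1 went from 2.65 to 2.05 (interaction -0.60, unadjusted p = 0.000481 and adjusted p = 0.202 by edgeR) and Idi1, isopentenyl diphosphate isomerase, from 1.39 to 0.74. Insig1 (2.34 to 1.93) and Stard4, a cholesterol carrier (1.62 to 1.25), narrowed by the values too, while the Srebf2 transcript stood at 1.47 and 1.44 and Abca1 was wider (0.87 to 1.27, unadjusted p = 0.00344 by edgeR).

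Interferon-stimulated genes narrowed by a similar median, with more spread between libraries. Of 39 tested in both comparisons 36 had a smaller absolute difference with M2-Exo, and 0 of the 41 in the interaction fit passed the adjusted threshold with edgeR or DESeq2, while 13 had an unadjusted p under 0.05 by edgeR and 15 by DESeq2. The median interaction was -0.39 and depended on LPS replicate 1: it was -0.21 without that library and -0.48 without LPS replicate 2, when 24 had an unadjusted p under 0.05. Summed over the list, LPS replicate 1 had 2217 CPM and the other LPS libraries 1806 and 1857 CPM, against 1653, 1651 and 1696 CPM with LPS + M2-Exo and 1001 to 1050 CPM in the 6 hyperoxia libraries. Every LPS + M2-Exo library was below every LPS library, and the hyperoxia groups overlapped. Mx2, an antiviral GTPase, had 7.97, 5.22 and 5.02 CPM with LPS and 2.48, 2.14 and 2.9 CPM with LPS + M2-Exo, and its difference went from 1.55 to 0.092 (interaction -1.46, adjusted p = 0.262 by edgeR). Irf7, the master factor of interferon production, went from 1.84 to 0.99. The macrophage list was also lower with M2-Exo in the LPS cultures, at 501.6 to 563.9 CPM against 625.6 to 695.4 CPM over the tested members, and its part in this narrowing was not tested.

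**Figure D5:**
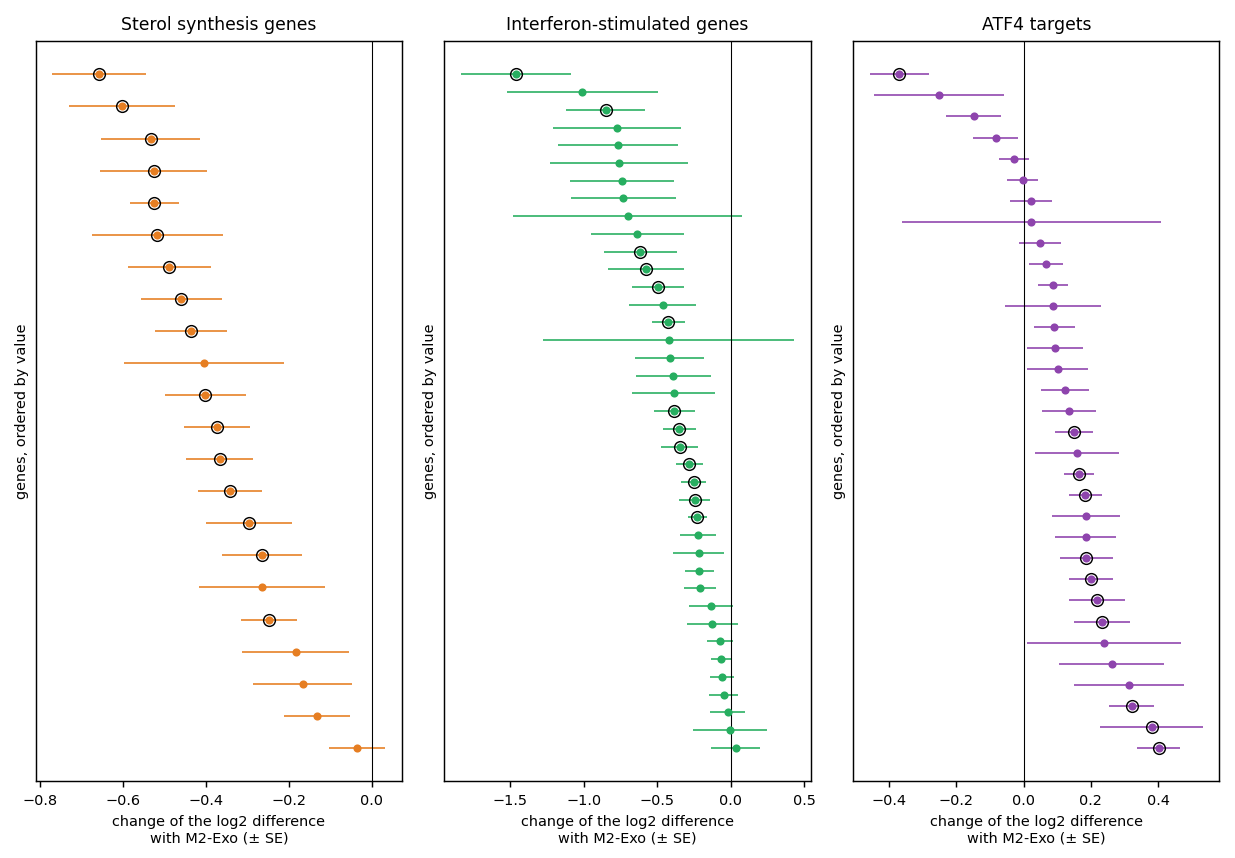
Change of the log2 difference between LPS and Hyp with M2-Exo (interaction, horizontal axis, with SE bars; genes ordered by value along the vertical axis) for each sterol synthesis gene, interferon-stimulated gene and ATF4 target tested; rings mark an unadjusted p under 0.05. All 22 sterol points lie below 0 with a median of -0.39, the interferon points spread more widely around the same median, and 27 of 33 ATF4 points lie above 0 with a median of 0.14.

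ATF4 targets narrowed slightly from the other side. In 27 of 33 the interaction was positive, toward a smaller deficit in LPS + M2-Exo, with a median of 0.14 that ran from 0.12 to 0.16 over the settings tried. By edgeR 11 had an unadjusted p under 0.05 and 0 an adjusted one. DESeq2 called 3, of which Slc7a5 and Wars narrowed and Slc7a11 became wider. Their sums were 3511, 3459 and 3630 CPM with LPS, 3727, 3814 and 3865 CPM with LPS + M2-Exo and 7876 to 7975 CPM over the 6 hyperoxia libraries. Each LPS + M2-Exo library exceeded each LPS library, by far less than the gap to hyperoxia. Slc7a5 went from -1.97 to -1.57 (interaction 0.40, unadjusted p = 4.37e-05 and adjusted p = 0.0775 by edgeR) and Wars, the tryptophanyl synthetase, from -1.02 to -0.70. Slc7a11 was an exception and became wider, from -1.28 to -1.64 (adjusted p = 0.243 by edgeR and 0.0286 by DESeq2).

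With all libraries no wider difference passed the adjusted interaction test in edgeR, but DESeq2 called some. Among 1302 genes called in either comparison with an unadjusted interaction p under 0.05, 607 were narrower and 695 wider. Aloxe3 went from -2.81 to -3.69 (interaction adjusted p = 0.213 by edgeR and 0.0414 by DESeq2) and Fn1, fibronectin, from 0.39 to 0.78 (adjusted p = 0.191 by edgeR and 0.00263 by DESeq2). Both were called by edgeR without Hyp + M2-Exo replicate 1 (adjusted p = 0.0454 and 0.0146). Hspg2 went from 1.59 to 1.90 (adjusted p = 0.25 by edgeR and 0.0424 by DESeq2) and Calcrl from 3.95 to 5.04 (adjusted p = 0.413 by edgeR). Of 18 glycolytic enzyme genes 5 had an unadjusted interaction p under 0.05 and 0 passed the adjusted threshold by edgeR, and the list's median was 0.79 without and 0.82 with M2-Exo. In the matrix list the median was 0.68 with and 0.46 without M2-Exo, over 50 and 49 genes tested. The median interaction of that list was only 0.062, and the median absolute log2 fold change was 1.13 with and 1.03 without M2-Exo. Of 57 lysosome and autophagy genes 17 had an unadjusted interaction p under 0.05 by edgeR (29.8%, against 9.78% of all genes) and 0 passed the adjusted threshold. Only 19 of the 57 had a smaller absolute difference with M2-Exo, and the median interaction was -0.098. This list summed to 9799, 10060 and 9910 CPM with LPS and 9416, 9392 and 9300 CPM with LPS + M2-Exo, while the hyperoxia groups overlapped. In total 3 genes were called in opposite directions in the 2 comparisons. Ythdf3, a reader of methylated RNA, had 109.8, 113 and 183 CPM with LPS, 181, 180.5 and 182 CPM with LPS + M2-Exo, 231, 231 and 224 CPM with Hyp and 125, 145 and 134 CPM with Hyp + M2-Exo, and went from -0.76 to 0.43. LPS replicate 3 stood apart from the other LPS libraries. Nek7, a kinase that NLRP3 needs, went from -0.19 to 1.16, but LPS + M2-Exo replicate 2 stood at 44.3 CPM beside 124.5 and 129.1 CPM in the other libraries of its group. Aacs, acetoacetyl-CoA synthetase, went from 0.16 to -0.22. The interaction of these 3 genes had an adjusted p of 0.121, 0.326 and 0.243 by edgeR with all libraries. Ythdf3 was called by DESeq2 (adjusted p = 0.00383), by edgeR with no filter on low counts (0.0252) and by edgeR without LPS replicate 3 (7.88e-06). Aacs was called by DESeq2 (adjusted p = 0.0289), and Nek7 by edgeR without LPS + M2-Exo replicate 2 (adjusted p = 5.5e-07).

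The strand used in counting is not given in the sources used here, so reads of genes that overlap cannot be told apart. Besides Ddit3, Pigb and Ube2s, the values of these named genes are uncertain for that reason: Abca3, Acvr2a, Atf5, Atp6v1h, Bag3, Bcl2, Ccl2, Ccnd1, Cdc45, Cds1, Cebpa, Chka, Clock, Col12a1, Col4a3, Coro1a, Cox6a2, Csf1r, Csf2, Ctsc, Cxcl16, E2f8, Eif2ak1, Eif2ak2, Eif2ak3, Fn1, Gata6, Gpr137c, Hif1a, Hk2, Hsp90b1, Il1b, Irak3, Irf7, Lamtor1, Lsr, Ltbp4, Mafk, Mapkapk2, Mirt1, Mknk1, Mthfd2, Mtor, Ndufa13, Nek7, Nkx2-1, Npc1, Nr1d1, Pdgfra, Per3, Pfkp, Prelp, Psph, Rpl12, Rtkn2, Sema3e, Sesn2, Shmt2, Slc30a4, Slc39a10, Slc39a13, Slc7a11, Slc7a5, Smc2, Srebf1, Tgfb2, Tgfb3, Tjp1, Vcam1, Xntrpc, Yars, Zak, mt-Co3 and mt-Nd4.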

How the data were processed

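RNA was sequenced as poly(A) libraries in 12 samples of MLE-12 cells. The labels name an RNeasy extraction and the study's methods name Trizol, and this difference could not be settled. The authors deposited raw read counts and FPKM per gene, and per the labels used HISAT2 2.0.4, StringTie 1.3.0 and edgeR with build GRCm38. The deposited counts were used as they stand, and the deposited FPKM values served only as an alternative with limma. The annotation and strand used in counting are not given in the sources used here. The table holds 34745 genes, of which 37.53% overlap another gene.

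Groups came from the labels. Counts were filtered with filterByExpr, scaled by TMM and tested with the quasi-likelihood test of edgeR 4.0.16 in R 4.3.3, with adjusted p under 0.05 by Benjamini-Hochberg over all genes tested. LPS + M2-Exo was compared with Hyp + M2-Exo, LPS with Hyp, and the change between both differences was tested as an interaction over all 12 libraries. Standard errors were derived from the fold change and the F statistic. Alternatives were DESeq2 1.42.0, limma 3.58.1 on log2(FPKM + 1) and log2(FPKM + 0.1), other scalings and filters, thinning to the smallest library, a replicate block and leaving out each library. The scripts were tested on simulated data.

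Named by rule were the 12 called genes with the largest rise and the 12 with the largest fall among those with an informative symbol, a mean of at least 10 CPM in the higher group and no overlap between groups, the genes called by the interaction, the 2 higher and 2 lower members of each list with the smallest adjusted p, and genes the study discusses. A few genes that the rule names are not reported here. Other list members were named for their role after their values were seen. The members and lists were chosen with earlier results of these data known, and some lists came from that earlier work. Promoter windows came from RefSeq (GRCm38.p6) and were searched on both strands for 8 short motifs. These were the C/EBP-ATF, NF-kB, sterol response and hypoxia response motifs reported here, the antioxidant, metal and heat shock elements and the CCAAT box.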

Additional observations from a re-analysis of the deposited data

Results flagged for a closer look

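For 5 genes the difference between LPS and hyperoxia changed with M2-Exo by the interaction test of edgeR. The change on the log2 scale was 0.79 for Slc30a7, 0.43 for Usp36, 0.52 for Ube2s, -0.52 for Acat2 and -0.94 for Pigb. In each the difference was nearer to 0 with M2-Exo in both cultures. The test compares 3 libraries in each of the 4 groups, and the cause was not tested.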

How the results depend on the processing

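Of 3170 values of 179 named genes under the alternatives, 3121 kept their direction and their side of the threshold, 24 were weaker, 11 stronger and 14 changed sign. The sign changes were in Ube2s and Tsg101, neither of which passed the test between the injuries with M2-Exo. Ube2s with M2-Exo was -0.0701 with library size alone, -0.0628 with limma on log2(FPKM + 1) with and without the filter, -0.069 with log2(FPKM + 0.1), and from -0.0044 (Hyp + M2-Exo replicate 3 left out) to 0.0426 when 1 library was left out. Tsg101 was -0.0839 with library size alone, -0.0081 with no filter, -0.00222 with at least 10 counts in every library, -0.00189 thinned, -0.0788 with limma on log2(FPKM + 1) with and without the filter and -0.0838 with log2(FPKM + 0.1), and from -0.0391 to 0.0592 when 1 library was left out, negative when that was replicate 2 of either group (-0.0391 and -0.0376).

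Genes that differed by a log2 fold change of at least 1 numbered 3273 with M2-Exo and 3310 without. With limma on log2(FPKM + 1) there were 1308 and 1292, with log2(FPKM + 0.1) 1922 and 1882, and with limma on log2(FPKM + 1) and no filter 1361 and 1353. At an unadjusted p under 0.05 and a log2 fold change of at least 2 there were 983 and 1060. Scaling by library size alone gave a median of all genes of -0.0991, against -0.0083, and 43.6% of the called genes were then higher in LPS + M2-Exo instead of 49.6%.

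The 5 genes of the interaction became 13 with no filter, 70 with DESeq2, 3 when thinned and 3 with the replicate block. Leaving out 1 library gave from 4 to 34: 34 when this was Hyp + M2-Exo replicate 1, 10 for LPS + M2-Exo replicate 2, 9 for LPS replicate 3 and for Hyp replicate 2, and 8 for LPS replicate 1. The cause was not tested. Same-numbered libraries of the 2 injuries were only weakly correlated, at 0.0137, 0.0176 and -0.0151 with M2-Exo and 0.0396, 0.0123 and 0.0462 without. Without M2-Exo each LPS library was closest to the Hyp library of its own number, so these values do not settle whether replicate numbers pair the samples. With the replicate block 9864 genes differed with M2-Exo. Leaving out 1 library gave from 9603 to 9913 with M2-Exo and from 10046 to 10301 without.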
